A study of Mus musculus with 12 samples.

Results

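Spiral ganglion neurons carry sound information from the hair cells of the cochlea to the brain, and 7 regulators of gene transcription linked to these neurons were followed in the mouse auditory nerve after birth: Gata3, Isl1, Prox1, Pou4f1, Runx1, Eya1 and Meis2. The genes were chosen by name, out of 18193 genes with a probe set of their own on the array, and 21 of the 45037 probe sets tested belong to them. Of the probe sets of a gene, the one with the highest mean over the 12 arrays stands for it, and the remaining ones serve as a check. Tissue came from untreated CBA/CaJ mice of both sexes, 2 of them on each of 6 days after birth: P0, P3, P7, P10, P14, P21. The outer bony shell and the lateral wall of the cochlea had been removed, and what was left, the modiolus, holds mainly the nerve, although part of the sensory epithelium can stay with it. Both cochleas of a mouse were pooled, so each array is 1 mouse. Values are log2 RMA values, a normalized probe set brightness, and are compared between stages of the same probe set only. Such tissue is a mixture: fewer cells of a type and less RNA per cell cannot be told apart.

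Inner ear neurons arise from the otic vesicle, and a relay of transcription factors first specifies them and then keeps their identity. Gata3 is a zinc finger factor that auditory neurons need for their survival and wiring, and Isl1 is a LIM homeodomain factor of sensory neurons. Pou4f1, also known as Brn3a, and Runx1, a runt domain factor, are known in the mature ganglion from subsets of the type I neurons. Prox1 and Meis2 are homeodomain factors of differentiating neurons, and Eya1 is a phosphatase and a coactivator of transcription. Several of the genes are not particular to neurons: Gata3, Eya1, Isl1 and Prox1 are also known from the sensory epithelium, Prox1 from lymphatic endothelium and Runx1 from blood cells.

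Marker genes were read beside the tissue label. No gene of any of the 13 gene lists used here lay in the lowest 25% of values on all arrays, so this does not set neurons apart from other cells. For the neuron list (12 genes) the log2 of the summed level ran from 14.33 at P3 to 16.17 at P21. Markers of other cells were present too, and some of them changed with age. Of 11 leukocyte markers, 10 were higher at P10 than at P0. Gabra6, a receptor subunit of cerebellar granule neurons, lay between 4.43 and 5.24 on every array up to P10, at 8.50 and 9.23 at P14, and at 6.92 and 9.92 at P21. RNA balance also differed: the 3′ control probe set of Actb exceeded the 5′ one by 0.81 to 1.41 on the arrays from P0 to P14, but by 2.32 and 2.03 at P21. The 2 mice at P21 stood further apart (r = 0.991 over all probe sets) than the mice of any other stage, and 11 of 12 neuron markers were higher in the second of them.

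A gene was called when its adjusted p was under 0.05 and its difference was over 1.5-fold. Over the 6 stages 5 of the 7 genes were called, namely Gata3, Pou4f1, Runx1, Eya1 and Meis2, while 38.3% of all probe sets were. Of the later stages P3, P7, P10 and P21 were tested against P0, and P14 was not. In these comparisons every call of a member was a lower one. At P3 Pou4f1 and Runx1 were lower, where 2.80% of all probe sets were lower and 0.981% higher. At P7 Eya1 was lower, against 5.68% lower and 5.44% higher, and at P10 Gata3 and Eya1 were lower, against 10.1% and 9.24%. At P21 only Eya1 was lower among the 7 genes, against 14.9% lower and 12.4% higher. These comparisons share the P0 arrays. The median log2 difference of the 7 genes from P0 was -0.32 at P3, -0.36 at P7, -0.65 at P10 and -0.54 at P21, beside medians over all probe sets of 0.03, -0.01, -0.01 and 0.04.

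Between neighbouring stages few calls were made. From P3 to P7 Eya1 fell, where 3.98% of all probe sets were lower and 6.0% higher. From P7 to P10 no member was called in limma, against 0.127% lower and 0.104% higher, and 1 member, Gata3, had an unadjusted p under 0.05; the methods' t-test at its own threshold (unadjusted p under 0.05 and over 1.5-fold) called 0. From P10 to P14, the days around the onset of hearing, limma called 0 members and 0% of all probe sets in either direction, and Pou4f1 alone had an unadjusted p under 0.05. The methods' t-test called 1 member there. From P14 to P21 again no member was called, beside 1.73% lower and 0.722% higher. Runx1 and Meis2 had an unadjusted p under 0.05 in that step, and the methods' t-test called 0 members.

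**Figure D1:**
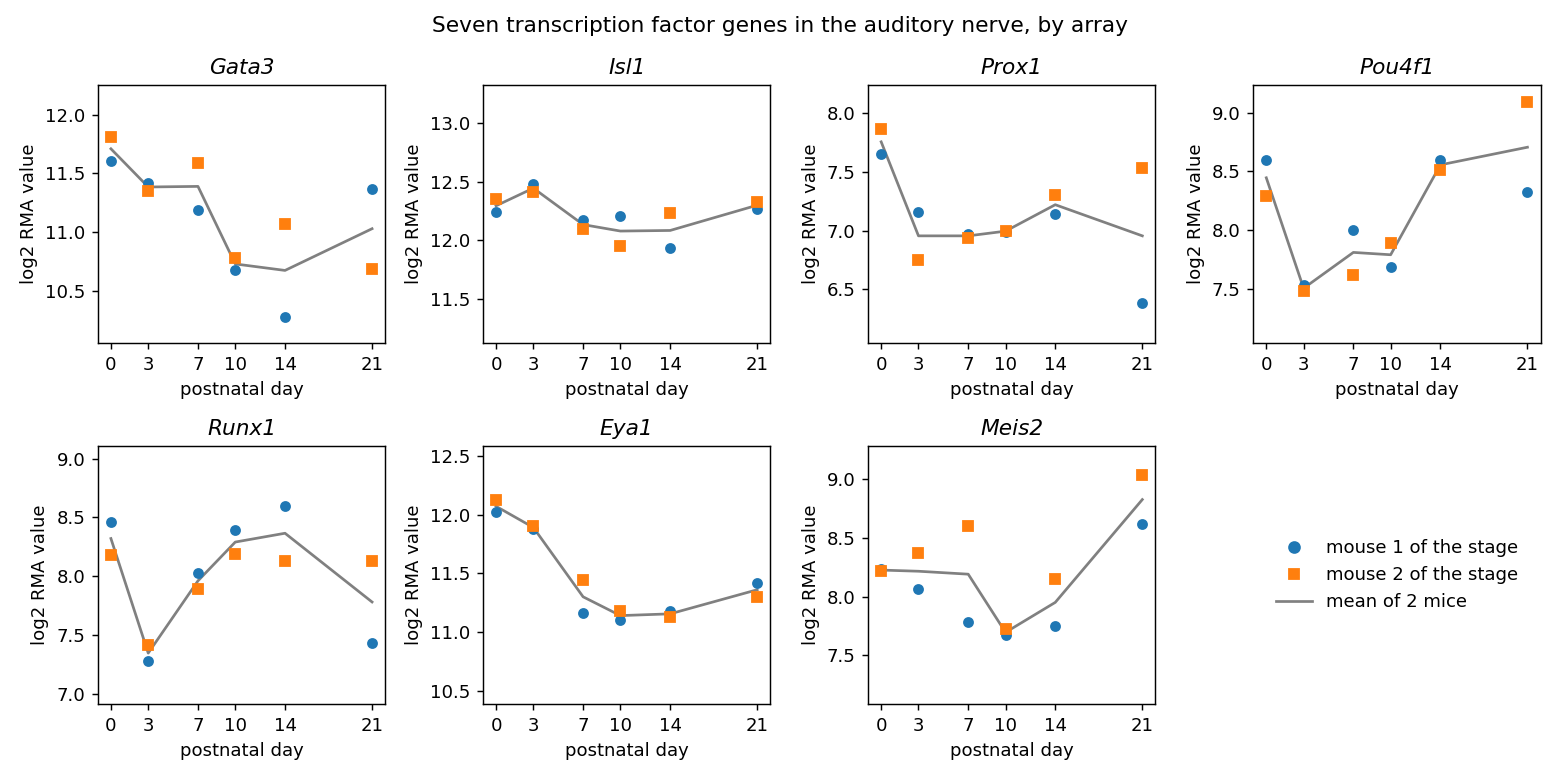
Log2 RMA value (vertical axis, the same span of 2.2 log2 units in every panel) of the 7 genes against postnatal day (horizontal axis), with 1 point per mouse and a line through the mean of the 2 mice. Eya1 steps down between P3 and P7, Pou4f1 and Runx1 are lowest at P3, Meis2 is highest at P21, and Isl1 stays between 11.94 and 12.48.

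Eya1 was the member called in most comparisons. Its values were 12.02 and 12.12 at P0, 11.88 and 11.90 at P3, 11.16 and 11.44 at P7, 11.10 and 11.18 at P10, 11.18 and 11.13 at P14, and 11.42 and 11.30 at P21. All 4 arrays of P0 and P3 lay above all 8 later arrays. The fall from P3 to P7 was 0.59 on the log2 scale (SE 0.11, 1.51-fold, adjusted p = 0.00709). From P0 the gene was 1.71-fold lower at P7 (adjusted p = 0.00143), 1.91-fold lower at P10 (adjusted p = 0.000234) and 1.64-fold lower at P21 (adjusted p = 0.000669). The stages from P7 on formed a plateau, and neighbours among them in order of level overlapped.

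The other probe sets of Eya1 gave the same direction. The probe set 1443117_at went from 10.01 and 10.07 at P0 to 8.73 and 8.87 at P7, a difference of -1.24 (SE 0.18, adjusted p = 0.00116). The dimmest, 1421727_at, was 1.66-fold lower at P10 than at P0 (adjusted p = 0.027) and 2.66-fold lower at P21 (adjusted p = 0.00052). Its late course thus went further down than that of the brightest one, and the part of the RNA balance at P21 was not tested. The step from P3 to P7 is the least firm of the calls of Eya1. Without the first P7 mouse its difference was -0.45 and without the second P3 mouse -0.58, both under the fold limit. With the Actb balance as a covariate, the P21 difference from P0 was -0.96 with adjusted p = 0.287.

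Gata3 was also highest at birth. It measured 11.61 and 11.81 at P0, 11.42 and 11.35 at P3, and 11.19 and 11.59 at P7. It then measured 10.68 and 10.78 at P10, 10.28 and 11.07 at P14, and 11.37 and 10.69 at P21. Both P0 arrays lay above the 10 later ones, both P10 arrays lay below all earlier ones, and the mice of P14 and of P21 lay far apart. The P10 mean, 10.73 ± 0.07 (SD, n = 2), was 1.97-fold below the P0 mean, 11.71 ± 0.14 (log2 difference -0.98, SE 0.27, adjusted p = 0.0198). At P21 the difference was -0.68 (adjusted p = 0.0674), and it was -1.02 (adjusted p = 0.0215) without the first P21 mouse but -0.34 (adjusted p = 0.398) without the second. The P10 call was lost without either P0 mouse (adjusted p = 0.0584 and 0.111) or either P10 mouse (0.106 and 0.0655), with differences of -0.88 to -1.08. The call over the 6 stages (adjusted p = 0.0421) was lost without either P0, P3 or P10 mouse or the second P7 mouse, with adjusted p of 0.0591 to 0.128. The array holds a single probe set for Gata3, so no second one checks it.

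Some markers of the sensory epithelium moved over the same days. Of 10 supporting cell and tectorial membrane genes 4 were lower at P10 than at P0 and 1, Gjb6, was higher. Tecta, a protein of the tectorial membrane, lay at 13.05 and 13.21 at P0 and at 6.26 and 6.93 at P10. Sox2, a factor of supporting cells and of glia, was 2.23-fold lower at P10 (adjusted p = 0.000456). The log2 of the summed level of the 10 genes ran from 15.00 to 15.10 at P0 and from 14.32 to 14.74 at P10. Of 9 hair cell genes 3 were lower at P10, with Atoh1, the factor that specifies hair cells, 11.9-fold lower (adjusted p = 5.02e-07). The part of these cells in the lower values of Eya1 and Gata3 was not tested.

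Pou4f1 and Runx1 shared a low point at P3. Pou4f1 measured 8.60 and 8.29 at P0, 7.53 and 7.48 at P3, 8.0 and 7.62 at P7, 7.69 and 7.89 at P10, 8.60 and 8.51 at P14, and 8.32 and 9.09 at P21. The values of P3 to P10 all lay below those of P0, P14 and P21. The P3 mean was 1.92-fold below P0 (log2 difference -0.94, SE 0.23, adjusted p = 0.0413), and the second probe set, 1429668_at, gave -1.03 (adjusted p = 0.0287). From P10 to P14 the difference was 0.77 (SE 0.23, unadjusted p = 0.00697, adjusted p = 0.44) and 1.01 on the second probe set (adjusted p = 0.362), and neither passed after adjustment. At P21 the gene stood 0.26 from its P0 value, with a 95% interval of -0.24 to 0.76. That value turned on the mouse kept, at 0.65 (adjusted p = 0.0252) without the first P21 mouse and -0.12 (adjusted p = 0.65) without the second.

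Runx1 measured 8.46 and 8.18 at P0, 7.28 and 7.41 at P3, 8.03 and 7.89 at P7, 8.39 and 8.19 at P10, 8.60 and 8.13 at P14, and 7.43 and 8.13 at P21. The P3 arrays were the lowest of the 12, with the first P21 array next to them, and the P10 and P14 values overlapped those of P0. The P3 mean was 1.97-fold below P0 (log2 difference -0.98, SE 0.22, adjusted p = 0.0347). From P3 to P7 the difference was 0.61 (adjusted p = 0.0953), which did not pass. At P21 the difference from P0 was -0.54 (adjusted p = 0.0805), with -0.19 (adjusted p = 0.516) without the first P21 mouse and -0.89 (adjusted p = 0.0088) without the second.

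Both P3 calls rest on few mice. For Pou4f1 the difference was -0.79 and -1.10 without the first and the second P0 mouse (adjusted p = 0.269 and 0.101) and -0.96 and -0.91 without the first and the second P3 mouse (0.13 each). Leaving out either P10 mouse (0.0635) or either P14 mouse (0.0594) also took its adjusted p past 0.05. For Runx1 the adjusted p was 0.234 and 0.0963 without the P0 mice, 0.144 and 0.087 without the P3 mice, 0.0502 without either P7 mouse and 0.0553 without either P10 mouse, and its difference stayed between -0.84 and -1.12. With the Actb balance as a covariate the differences were -0.72 for Pou4f1 and -0.73 for Runx1, and neither was called.

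The P3 arrays were low in some other neuronal genes as well. Of the 12 neuron markers 2 were lower at P3 than at P0, the RNA binding protein Elavl3 (2.27-fold, adjusted p = 0.0199) and the neurofilament Nefm (1.72-fold, adjusted p = 0.0232). The log2 of the summed level of the list was 14.33 and 14.45 at P3, against 14.68 and 14.84 at P0. Of the 8 spiral ganglion neuron markers 2 were lower and 2 higher, with Prph, a filament of type II neurons, 2.54-fold lower (adjusted p = 0.00252) and Kcna1, a potassium channel of the axon, 2.23-fold higher (adjusted p = 0.00749). None of the 11 leukocyte markers was called at P3 in limma, where 3 had an unadjusted p under 0.05 and the methods' t-test called 1. At P14, where Pou4f1 stood at 8.60 and 8.51, the summed level of the granule neuron markers was also high. Its log2 lay between 11.49 and 11.85 up to P10, at 12.60 on both P14 arrays, and at 12.17 and 13.01 at P21. Of the 6 genes, Pax6 had means of 6.04 at P10 and 6.11 at P14, and Zic2 of 10.4 and 10.47. From P10 to P14 limma called none of the 6. The part of neurons, leukocytes and granule neurons in the values of Pou4f1 and Runx1 was not tested.

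The probe sets of Runx1 did not move as one. The next brightest, 1440878_at, was 1.76-fold lower at P3 than at P0 (adjusted p = 0.0236) and stood 0.10 from P0 at P21. The probe set 1422865_at was at -0.76 at P3 (adjusted p = 0.16), and at P21 it was 2.58-fold lower than at P0 (adjusted p = 0.00316) and 2.42-fold lower than at P14 (adjusted p = 0.0442). Its values were 6.60 and 7.31 at P14, and 5.37 and 5.99 at P21, so the stages did not overlap. The Actb balance was 2.32 and 2.03 at P21 against 0.81 to 1.41 on the earlier arrays. Its part in how the probe sets part at P21 was not tested. The remaining 3 probe sets stood at -0.07, 0.10 and 0.43 at P3 and none was called. These are 1427650_a_at, 1452530_a_at and 1452531_at, and their correlations with the brightest over the 12 arrays were 0.02, -0.57 and -0.40. When all probe sets of Runx1 were averaged, the P3 difference was -0.35 (adjusted p = 0.128) and the stage means lay within 0.35 of each other (adjusted p = 0.173), so both calls of Runx1 rest on the brighter probe sets.

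**Figure D2:**
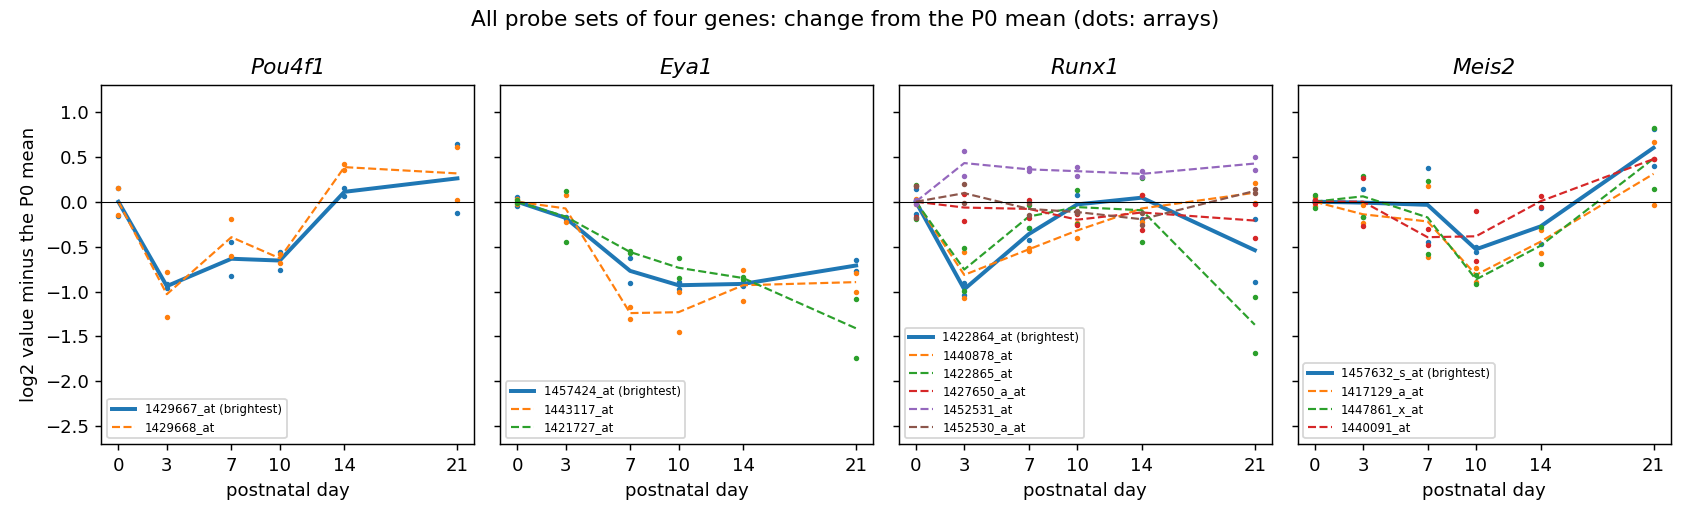
Log2 value minus the P0 mean of the same probe set (vertical axis) against postnatal day for all probe sets of Pou4f1, Eya1, Runx1 and Meis2, with dots for arrays, lines through stage means and the brightest probe set as a thick line. Both probe sets of Pou4f1 run together (r = 0.95), whereas those of Runx1 part at P21. There 1422865_at lies 1.37 below its P0 mean and 1440878_at 0.10 above, and the part of the RNA balance was not tested.

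The promoter sequences of these genes are printed because the pair shared its low point at P3 while the bases before their starts differ widely in composition. Shown, 5′ to 3′ on the minus strand of the mouse genome (RefSeq, build GRCm38.p6), are the bases before the outermost annotated start of each gene, at chr14:104468119-104468249 for Pou4f1 and at chr16:92826075-92826324 for Runx1. Capitals mark CpG dinucleotides, of which the 131 bases of Pou4f1 hold 30 and the 250 bases of Runx1 hold 2.
Pou4f1: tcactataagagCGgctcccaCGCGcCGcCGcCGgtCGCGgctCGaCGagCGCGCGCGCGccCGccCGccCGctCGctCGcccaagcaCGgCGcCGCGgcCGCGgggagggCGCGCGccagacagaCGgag
Runx1: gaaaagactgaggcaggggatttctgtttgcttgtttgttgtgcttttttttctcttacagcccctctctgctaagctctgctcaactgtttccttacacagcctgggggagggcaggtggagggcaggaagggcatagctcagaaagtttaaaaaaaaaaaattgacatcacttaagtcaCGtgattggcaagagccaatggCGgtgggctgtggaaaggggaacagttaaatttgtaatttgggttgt
Over the 250 bases before the annotated starts, GC content was 78.0% for Pou4f1 and 45.6% for this start of Runx1. The Pou4f1 window ends at a start other than the outermost, so only its 131 printed bases lie before all annotated starts. The 47 CpGs in the Pou4f1 window exceed the number in 99.8% of 32851 windows of all genes, whose median is 6, and the 2 of Runx1 exceed that in 18.8%. A second annotated start of Runx1 has 27 CpGs, more than 91.4% of windows.

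RefSeq windows were found for 6 of the 7 genes, 8 windows in all. The 250 bases before the start were searched on both strands for AGATAA (bound by GATA factors, in 10.0% of all windows), TGTGGT (runt domain factors, 14.0%), TAATTA (homeodomain factors, 4.8%) and TGACAG (Meis factors, 15.9%). TGACAG was found in 1 of the 8 windows, that of Pou4f1, outside the stretch printed here, where it overlapped no other match. The other 3 motifs were in none of the 8 windows. A match describes letters only.

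Prox1 was highest at birth, and none of the differences between stages that were tested passed. It measured 7.65 and 7.86 at P0, 7.16 and 6.75 at P3, 6.97 and 6.94 at P7, 6.99 and 7.00 at P10, 7.14 and 7.30 at P14, and 6.38 and 7.53 at P21. Both P0 arrays lay above the 10 later ones, and the 2 mice at P21 differed by 1.15, more than the whole change from P0. From P0 the difference was -0.80 at P3, P7 and P21 and -0.76 at P10, with adjusted p of 0.15, 0.0951, 0.0504 and 0.0779. Without either P21 mouse the spread shared by all stages was smaller and 3 of these comparisons passed, with adjusted p = 0.0144 at P3, 0.00516 at P7 and 0.00363 at P10. At P21 the value turned on the mouse kept: it was -1.37 (adjusted p = 0.000448) without the second P21 mouse and -0.22 (adjusted p = 0.358) without the first. The other probe sets of Prox1 were dim. The probe set 1457432_at lay between 5.10 and 5.58 on all arrays, and 1421336_at lay between 4.61 and 5.46 and stood at -0.51 from P0 at P3 (adjusted p = 0.238).

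Lymphatic endothelium and supporting cells also hold Prox1. Lyve1, a receptor of lymphatic vessels, lay at 9.50 and 9.40 at P0, at 9.36 and 9.43 at P3 and at 7.82 and 7.90 at P10. Flt4, a growth factor receptor of the same vessels, lay at 7.49 and 7.48 at P0 and at 6.84 and 6.83 at P3, a difference of -0.65 (adjusted p = 0.0712). Of the 4 lymphatic markers matched none was called at P3 in limma, where 1, Flt4, had an unadjusted p under 0.05 and the methods' t-test called 1. At P21 3 of them were lower and 1, Reln, was higher (7.19-fold, adjusted p = 0.000113). Among the supporting cell genes 1 was called at P3, Gjb6, which was higher. The part of these cells in the values of Prox1 was not tested.

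**Figure D3:**
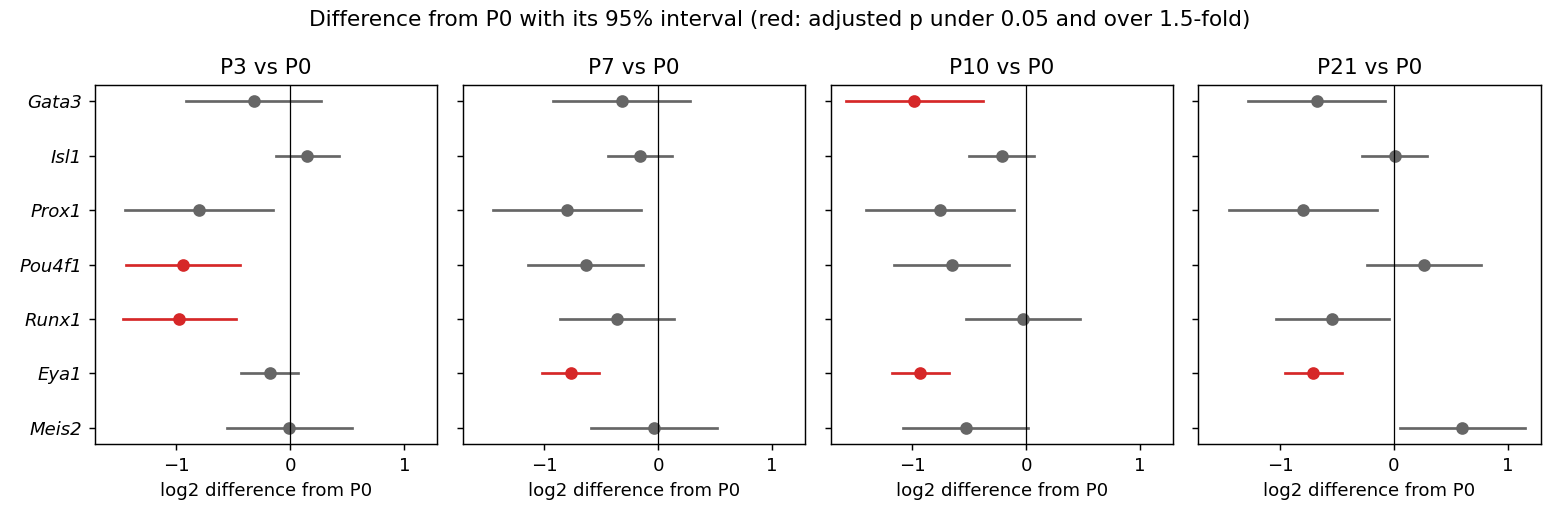
Log2 difference from P0 (horizontal axis) of the 7 genes at P3, P7, P10 and P21, with a point for the difference and a line for its 95% interval from the fit over 12 arrays. Red marks the called differences, which are Pou4f1 and Runx1 at P3, Eya1 at P7, Gata3 and Eya1 at P10 and Eya1 at P21, and the interval of Isl1 at P21 runs from -0.28 to 0.29.

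Meis2 was lowest at P10 and highest at P21. Its values were 8.23 and 8.22 at P0, 8.06 and 8.37 at P3, 7.78 and 8.60 at P7, 7.67 and 7.72 at P10, 7.75 and 8.15 at P14, and 8.62 and 9.03 at P21. Both P21 arrays were above all others, with the second P7 array just below them. The difference over the 6 stages passed (adjusted p = 0.0447), with means 1.13 apart on the log2 scale. No pair of stages tested passed on the brightest probe set: P10 stood at -0.53 from P0 (adjusted p = 0.146), P21 at 0.60 from P0 (adjusted p = 0.0801) and P21 at 0.87 from P14 (adjusted p = 0.0865).

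Of the other probe sets of Meis2, 1417129_a_at was 1.76-fold lower at P10 than at P0 (adjusted p = 0.042) and 1447861_x_at 1.82-fold lower (adjusted p = 0.0464). Both correlated with the brightest (r = 0.95 and 0.96). The dimmest, 1440091_at, stood at 0.47 from P0 at P21 (adjusted p = 0.0813), was highest there with 6.39 on both arrays, and passed over the 6 stages (adjusted p = 0.0311). The call over the stages depended on single mice, and it was lost without either P0, P3, P10 or P21 mouse or the first P14 mouse, with adjusted p of 0.0514 to 0.189. Without both P21 arrays the range was 0.53 (adjusted p = 0.322), and with the Actb balance as a covariate it was 0.57 (adjusted p = 0.323). The call was also lost with array weights (adjusted p = 0.0707) and on the next brightest probe set (adjusted p = 0.0543). The summed level of the granule neuron markers was high at P14 and at P21, and Meis2 lay at 7.75 and 8.15 at P14. Between the 2 mice at P21, Meis2 was higher by 0.41 in the second and granule neuron markers by a median of 1.25. Between P0 and P21 4 of 6 granule neuron markers rose, and their part in the P21 level of Meis2 was not tested.

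Isl1 varied least. It measured 12.24 and 12.35 at P0, 12.48 and 12.41 at P3, 12.17 and 12.10 at P7, 12.21 and 11.95 at P10, 11.94 and 12.23 at P14, and 12.27 and 12.33 at P21. The P3 arrays were the highest, and the values of P7, P10 and P14 overlapped. The stage means lay within 0.37 of each other (adjusted p = 0.145), and P21 differed from P0 by 0.01, with a 95% interval of -0.28 to 0.29. The second probe set, 1422720_at, followed the first (r = 0.97) with a wider range of 0.61, which passed over the 6 stages (adjusted p = 0.035).

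The 2 mice at P21 differed in several of these genes at once. The second mouse was higher than the first by 1.15 for Prox1, 0.77 for Pou4f1, 0.70 for Runx1, 0.41 for Meis2 and 0.06 for Isl1, and lower by 0.68 for Gata3 and 0.12 for Eya1. All 8 spiral ganglion neuron markers were higher in the second mouse, with a median difference of 0.56, as were 5 of 6 granule neuron markers, with a median of 1.25. Of the 10 supporting cell and tectorial membrane genes only 1 was. The part of the tissue makeup in the P21 values was not tested.

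Regulators act with partner proteins, and many of the partners listed were lower by P10. Of 14 partner genes matched 8 were lower at P10 than at P0 and none was higher, with a median log2 difference of -0.69 beside -0.01 over all probe sets. The LIM binding cofactor Ldb2 was 4.36-fold lower (adjusted p = 4.84e-06), Dach1, a transcriptional cofactor, 3.72-fold lower (adjusted p = 0.000282), and Six4 1.99-fold lower (adjusted p = 0.000521). The Pbx genes Pbx2 and Pbx3, partners of Meis proteins, were lower by 1.59-fold and 1.69-fold. At P21 4 partners were lower and 2 higher, the latter being Rnf6 (1.71-fold) and Zfpm2 (1.51-fold). In the step from P3 to P7, in which Eya1 fell, Ldb2, Dach1 and Six4 fell as well and Hipk2, a kinase that binds Pou4f1, rose 1.51-fold (adjusted p = 0.0139).

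Few family relatives of the 7 genes were called. Of 13 matched none was called against P0 at P3, P7 or P10 in limma. An unadjusted limma p under 0.05 was found for 4, 3 and 4 of them at P3, P7 and P10. Over all 45037 probe sets it was found for 9483, 12810 and 17485. The methods' t-test called 0 of the 13 relatives at each of these stages, and their median differences there lay between 0.01 and 0.09. At P21 Gata6 was 1.5-fold lower (adjusted p = 0.0295) and Eya2 1.55-fold higher (adjusted p = 0.00351). Of these 13 genes 3 were called over the 6 stages.

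Several factors of early neuron development outside the 7 genes were lower after birth. Of 18 matched, 6 were lower than P0 at P3, 7 at P7, 9 at P10 and 6 at P21, and 1, Esrrg, a nuclear receptor, was higher at P21 (1.99-fold, adjusted p = 0.000719). Sox11, a factor of young neurons, was 6.54-fold lower at P10 (adjusted p = 3.15e-06) and 6.80-fold lower at P21 (adjusted p = 1.51e-06). Insm1, a zinc finger factor of newborn neurons, lay at 7.16 and 6.76 at P0 and at 4.63 and 4.73 at P10 (adjusted p = 7.23e-05). The helix-loop-helix factor Nhlh2 lay at 6.55 and 5.75 at P0 and at 4.31 and 4.58 at P10 (adjusted p = 0.00126). The P10 values of both lie in the lowest 25% of their arrays and may be background, so no fold is given. At P3, where Pou4f1 and Runx1 had their low point, Onecut2 was 2.86-fold lower (adjusted p = 0.0126). Of the 12 neuron markers 7 were higher at P21 than at P0 and 3 were lower, the neurofilament Nefh being 8.06-fold higher (adjusted p = 3.42e-06).

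**Figure D4:**
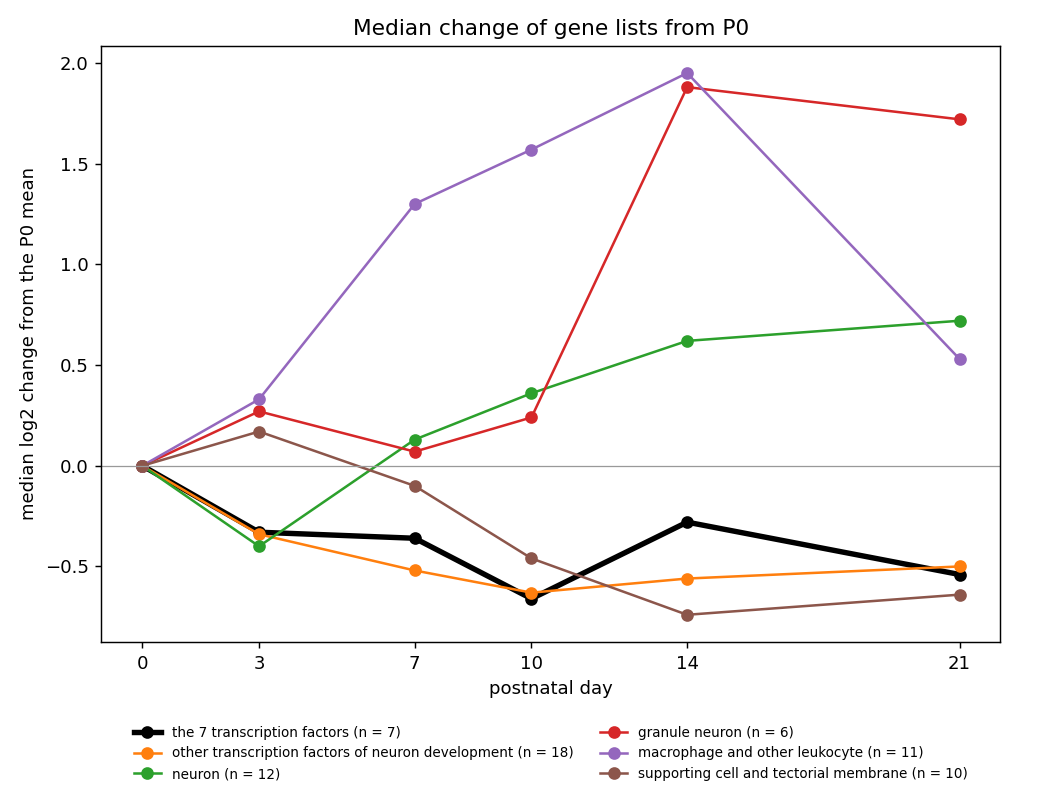
Median log2 change from the P0 mean (vertical axis) against postnatal day for the 7 genes (thick black line) and 5 marker or factor lists, with the number of genes in the key. The 7 genes and the other transcription factors of neuron development lie below 0 from P3 on, and the granule neuron and leukocyte lists reach their highest medians, 1.88 and 1.95, at P14.

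The courses of the 7 genes were compared with each other and with all genes whose stage means spanned at least 1 log2 unit (4407 genes), by Pearson's r over the same 12 arrays. These are descriptions, since the arrays share their ages and tissue makeup. Among the members Gata3 and Eya1 were most alike (r = 0.76) and Isl1 and Runx1 most unlike (r = -0.63), while Pou4f1 and Runx1 had r = 0.51. Eya1 had the closest matches of all: the fatty acid transporter Slc27a2 (r = 0.992), the polarity protein Epb41l5 (0.991), the Wnt receptor Fzd2 (0.99), Zfp111 (0.988) and Snhg12 (0.987). Fzd2 had stage means of 11.53 at P0, 11.22 at P3, 10.11 at P7 and 9.66 at P10, a step at the same age as that of Eya1.

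Pou4f1 was most like Flt1, a receptor for vascular growth factors (r = 0.947), Ntrk3, the receptor for neurotrophin 3 (0.935), Clip3 (0.927), Lonrf2 (0.922) and Psd2 (0.92). Ntrk3 had means of 9.11 at P0, 8.28 at P3, 8.69 at P10, 9.28 at P14 and 9.61 at P21, with its lowest stage at P3 like Pou4f1. Gata3 was most like Cobl (0.927), Adgra3 (0.907), Dnmbp (0.898), the neuregulin coreceptor Erbb2 (0.897) and Rgs9bp (0.892). For Runx1 they were the microtubule protein Map1b (0.898), Usf3 (0.849), Srrm2 (0.84), Abcc9 (0.838) and Uaca (0.825), and Map1b had means of 10.55 at P0, 8.96 at P3 and 10.80 at P7. The likeness was weaker for Meis2, with Dmkn first (0.871), then Rtp4 (0.87), Gpr162 (0.841), Kcnab1 (0.805) and Vegfd (0.794). It was of similar size for Isl1, with Slc7a4 first (0.864), and for Prox1, with Acta1 (0.812), Enox1 (0.8), the GABA receptor subunit Gabrb2 (0.78), the microtubule protein Mapt (0.769) and Brinp1 (0.768).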

How the data were processed

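RNA of 12 mice was hybridized to Affymetrix mouse 3′ arrays. From the scans the authors computed RMA and MAS5 values with Expression Console, and those deposited are on the log2 scale of RMA, which subtracts background, equalizes the quantiles of the arrays and summarises each probe set. They were used as they were; quantile normalization hides a change shared by most genes. Array medians lay between 6.71 and 6.79. Arrays have no read depth, and 2 mice per stage limit the precision. Of 45101 probe sets, 64 controls were left out and 45037 tested; 34945 have 1 symbol, 932 several and 9160 none.

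The fit was limma 3.58.1 (R 4.3.3; lmFit, eBayes; 12 arrays, 6 stage means, 6 residual degrees of freedom), with a moderated F-test over the stages and Benjamini-Hochberg adjustment over all 45037 probe sets. The fit was tested on simulated data. Alternatives were the methods' t-test, a replicate block, an intensity trend, array weights, other scaling and filtering, other probe sets, and leaving out mice. The members and the 13 gene lists (122 of 134 genes matched) were chosen with earlier results of these data known. All members are named, with their other probe sets. Of a list, up to 3 called genes by size, or the one with the largest difference, were to be named, and of like genes the 5 with the highest r. Every other gene named, those given per array included, was chosen after its values were seen. Replicate numbers were not taken to pair the mice.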

Additional observations from a re-analysis of the deposited data

How the results depend on the processing

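Over the stages, Pou4f1 and Eya1 were called in all 21 alternatives, Runx1 in 18, Gata3 in 13 and Meis2 in 8; the count of members called there was 2 to 5 when 1 mouse was left out. Leaving out 1 mouse gave 0 to 3 members at P3 against P0, 1 to 3 at P7, 1 to 4 at P10 and 1 to 3 at P21, 0 to 2 from P3 to P7, 0 from P7 to P10 and from P10 to P14, and 0 to 2 from P14 to P21. A stage left with 1 mouse was assumed to vary like the others. No difference called as reported changed sign. Differences from P0 at P21 that were called only under an alternative did: Pou4f1 ran from -0.12 to 1.76 (0.26 as reported), Prox1 from -1.37 to 0.98 (-0.80), Runx1 from -0.89 to 1.09 (-0.54) and Meis2 from -0.20 to 0.80 (0.60). Of 63 member results 33 were called neither as reported nor under any alternative.

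Against P0 at P21 (1 member called as reported), the intensity trend, array weights, leaving out the dimmest 25% of probe sets, shifting arrays to one median, and the 4 arrays alone each gave 2. Array weights gave 3 at P7 and 4 at P10. The 4 arrays of 2 stages alone gave 0 at P3, 2 at P7 and 4 at P10. Averaging the probe sets of each gene gave 1 at P3 and 4 at P10. The methods' t-test gave 2 at P7 and 1 from P10 to P14 unadjusted, beside 4091 and 370 of all probe sets. After Benjamini-Hochberg it gave 0 at P3, P7, P10 and P21 against P0 and 0 from P3 to P7. Adjusted in this way, it called 24 probe sets in all at P21. Of the alternatives chosen after seeing the data, the Actb balance as a covariate gave 0 at P3, 3 at P7, 0 at P21 and 0 from P3 to P7, with 605 probe sets in all at P21 against 12262; since the balance differs mostly between P21 and the other stages, this covariate and P21 can hardly be told apart. Without both P21 arrays the counts were 3 at P7, 4 at P10 and 2 from P3 to P7. The cause of these differences was not tested.

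The labels number the mice of a stage 1 and 2, and the differences between them correlated between stages by -0.12 to 0.32 (median 0.09, 6 of 15 pairs over 0.1), so the numbers were not taken to pair mice. With the replicate block, 1 member was called at P3 against P0, 2 at P21 and 1 from P14 to P21, and 4 over the stages. Pou4f1 then lost its P3 call (adjusted p = 0.0564) and Gata3 its call over the stages (0.0525), and Meis2 was called at P21 against P0 (0.0243) and against P14 (0.0387).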
